A study of Crocodylus porosus with 60 samples.

Results

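The rows examined are the mature miRNAs cPor-miR-191 and cPor-miR-425-5p, 2 of the 654 rows of a table of miRNA levels in the saltwater crocodile, Crocodylus porosus. They were chosen by name, over all 15 tissue libraries, and the table holds no other arm or copy of either. Small RNA was sequenced from flash-frozen hatchling tissue. Testis gave 4 libraries, heart and brain 2 each, and the other 7 tissues 1 each, namely spleen, liver, stomach, small intestine, cloaca, tongue and jaw skin. Runts and normal hatchlings grew under the same conditions without treatment. Per the labels, runts were 386.2 ± 23.6 mm long (SD) at 359 days and normal hatchlings 740.2 ± 73.5 mm at 373 days. Size class is given only in the column headers and only for testis (2 runt and 2 normal libraries), heart and brain (1 of each). Nothing says whether libraries of one size class came from separate animals, so p-values measure the spread between these libraries, which may be technical. In comparisons of tissues and in pooled SDs, any difference between runts and normal hatchlings counts as spread. In heart and brain it cannot be told from the spread between libraries. The cloaca values come from a column whose header reads cloacal gland, and whether gland or whole cloaca was sampled is not known.

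A miRNA is a short RNA that guides Argonaute proteins to messenger RNAs, which it recognises mainly through the bases near its 5′ end, and so lowers their translation and stability. In mammals miR-191 and miR-425 are processed from 1 primary transcript, from neighbouring hairpins in an intron of DALRD3, and both are widely used as reference miRNAs because many tissues express them. miR-191 is abundant in mammalian blood cells, and in mice it has a part in T cell survival and in the maturation of red blood cells. miR-425 has been reported in human cells to repress the mRNA of atrial natriuretic peptide, a hormone of heart muscle. The RefSeq gene table for the crocodile lists DALRD3 once, and the positions and sequences of the 2 miRNAs were not analysed here.

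Levels are in RPM, reads scaled to a fixed library size, relative to a library total whose definition the sources used here do not state. Listed rows held between 55.3% and 81.5% of that total. Estimated depth ran from 540000 to 4760000 reads per library, and between 3154 and 93031 estimated reads stood behind each value of a member, so counting error was small beside the spread between libraries. One row with no family name, miR-N444, took from 2.01% to 60.0% of the RPM of a library, the most in testis, so that the levels of all other rows were also computed without it. By tissue mean, marker rows were highest in the tissue of their label, such as striated muscle rows in heart (63266 RPM), brain and neuron rows in brain (59297 RPM), miR-122-5p in liver (208151 RPM) and white blood cell rows in spleen (40374 RPM). Some also varied within other tissues. miR-122-5p had 286 and 3152 RPM in runt testis, against 43.31 and 66.75 RPM in normal testis. In heart it had 920 RPM in the runt and 113 RPM in the normal hatchling, and in brain 1.9 and 2.31 RPM. Striated muscle rows had 3520 and 717 RPM in runt testis, against 210 and 87.9 RPM in normal testis. The source of these reads was not tested. In bulk tissue, fewer cells of a type and less RNA per cell cannot be told apart.

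Both miRNAs were found at high levels in every library. miR-425-5p had 25343 ± 9722 RPM (SD over 10 tissue means) and was the 7th most abundant row when each tissue counted once, with 3.73% of listed reads. Within single libraries it ranked between 4th and 18th of 654 rows. miR-191 had 9497 ± 9230 RPM and was the 16th most abundant row, with 1.40% of listed reads. Its rank within libraries ran from 4th in spleen to 31st in the runt brain library. RPM counts reads and not molecules, so where 1 of the 2 miRNAs is said to exceed the other, reads are meant. The 2 are compared mainly through how their ratio moves between libraries.

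The high level of miR-191 in spleen set it apart from its cluster partner. Spleen had 34608 RPM of miR-191 (95% Poisson interval on estimated reads 34385 to 34831, for counting error only), and cloaca followed with 13472 RPM. Liver had 8267 RPM, jaw skin 7200.3 RPM, tongue 6116 RPM, small intestine 5306 RPM and stomach 4906 RPM. The spleen value was 5.66 times the median of the other tissues and 2.57 times that of cloaca, which is a difference of single libraries with no replicate check and no test. It was 6.98 times that median after scaling by a trimmed mean of log ratios and 5.85 times with miR-N444 left out of the total.

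In the tissues with several libraries, testis had 6906 and 4880 RPM of miR-191 in the normal hatchlings and 7182 and 6444 RPM in the runts (6353 ± 1028 RPM, SD, n = 4). Heart had 3625 RPM in the normal hatchling and 6574 RPM in the runt (5100 ± 2086 RPM, n = 2). Brain had 4431 RPM in the normal hatchling and 2860.4 RPM in the runt (3646 ± 1110 RPM, n = 2). On deposited RPM every testis library lay above both brain libraries, whereas heart overlapped with both tissues. After trimmed mean scaling testis and brain overlapped too, since the second testis library of a runt had 4537 scaled RPM and the normal brain 5926. The libraries of 1 tissue had a pooled SD of 0.39 on the log2 scale. The gaps larger than that SD were those between spleen and cloaca (1.36 on the log2 scale), cloaca and liver (0.70), and stomach and brain, the lowest (0.43). The SD is that of single libraries, and a difference of 2 libraries varies more, so a gap just above it does not set tissues apart. With miR-N444 left out of the total, stomach was lowest. On scaled levels the pooled SD was 0.70, and the gap of 1.97 between spleen and cloaca was the one larger than it, with 0.37 between cloaca and liver and 0.17 between tongue and brain. From liver down to stomach, no tissue differed from its neighbour in the order by more than that SD.

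miR-425-5p showed a different order, in which spleen did not stand out. Tongue had 42770 RPM and cloaca 41192 RPM, followed by liver (28347 RPM), jaw skin (22975 RPM), spleen (22828 RPM), small intestine (19713 RPM) and stomach (11948 RPM). Spleen was thus at 0.999 times the median of the other tissues, and at 1.27 times that median after trimmed mean scaling. Testis had 20471 and 10900.2 RPM in the normal hatchlings and 13081 and 28830 RPM in the runts (18321 ± 8115 RPM, SD, n = 4). Heart had 35731 RPM in the normal hatchling and 9994 RPM in the runt (22862 ± 18198 RPM, n = 2). Brain had 6542 RPM in the normal hatchling and 38402 RPM in the runt (22472 ± 22529 RPM, n = 2). The 2 brain libraries thus held the lowest value of all 15 libraries and the third highest. The pooled SD of libraries of 1 tissue was 1.11 on the log2 scale, and no 2 neighbours in the order of tissues differed by more than that.

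**Figure D1:**
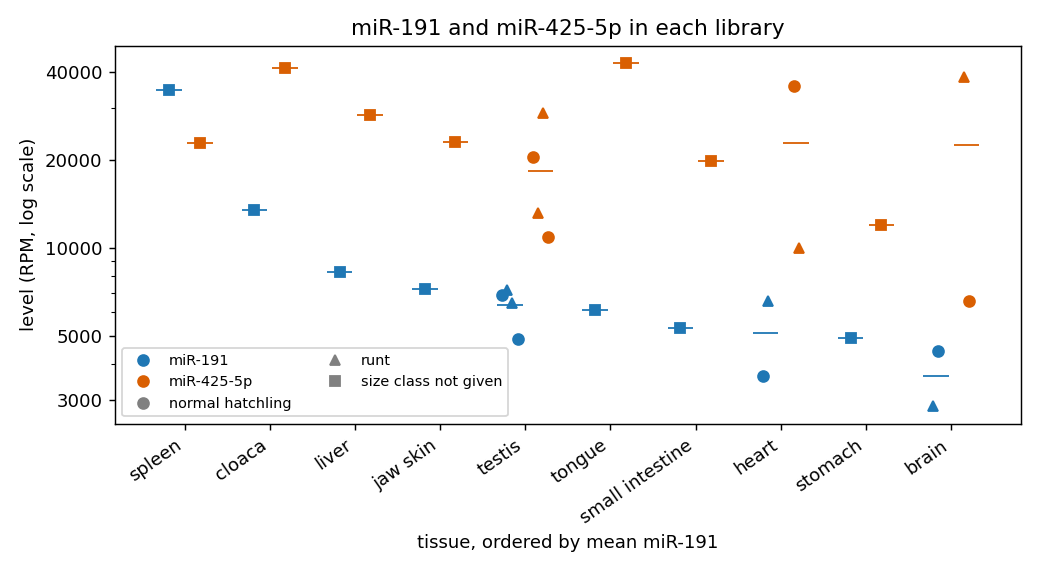
Level of miR-191 (blue) and miR-425-5p (orange) in each of 15 libraries, in RPM on a log axis, with a line at each tissue mean and symbols for the size class in the column header. miR-191 is highest in spleen (34608 RPM), the one tissue where it has more reads than miR-425-5p. The heart and brain libraries of miR-425-5p are spread from 6542 to 38402 RPM.

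Levels of miR-191 ran alongside those of white blood cell miRNAs. By the rule for likeness, the row whose log2 tissue means were most like those of miR-191 was miR-150, a miRNA of mature lymphocytes (r = 0.96 over 10 tissues, 0.90 without spleen). Next came miR-16c of the miR-15/16 family (0.91, or 0.71 without spleen), the unnamed rows miR-N569 (0.88 and 0.87) and miR-N25 (0.88 and 0.70), and miR-106-5p of the miR-17 family (0.88 and 0.67). All 5 were highest in spleen. These are correlations of points that share libraries and the same scaling, and are given as a description.

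Of 5 white blood cell names, 4 had a row, and none of these rows was at 0 in any library. In spleen miR-150 had 36221 RPM, miR-155-5p, a miRNA of activated lymphocytes and macrophages, 2706 RPM, miR-223, a miRNA of myeloid cells, 1302 RPM, and miR-146a-5p, which is induced in inflammatory signalling, 145 RPM. Their sum was 12.6 times the median of the other tissues, a wider step than the 5.66 times of miR-191. The sum ran from 2469 to 4392 RPM in testis, was 2286 and 4112 RPM in heart, and 844 and 905 RPM in brain, where miR-191 was also lowest. Over 15 libraries the log2 level of miR-191 followed this sum with r = 0.95, and with r = 0.89 over 14 libraries without spleen. For miR-425-5p r was 0.29. Most of the sum was miR-150 (36221 of 40374 RPM in spleen), which was picked above as the row most like miR-191. By itself miR-150 had r = 0.94 with miR-191 over 15 libraries, so the r of the sum largely repeats that likeness. Over the same libraries miR-223 had r = 0.84 and miR-155-5p r = 0.83. In cloaca, second highest in miR-191, miR-223 had 94.7 RPM, below its 453 RPM in liver. Of 2 red blood cell names, miR-144-5p alone had a row, at 230.3 RPM in spleen, at most 32.8 RPM elsewhere and 0 in cloaca. The part of blood cell content in the levels of miR-191 was not tested.

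**Figure D2:**
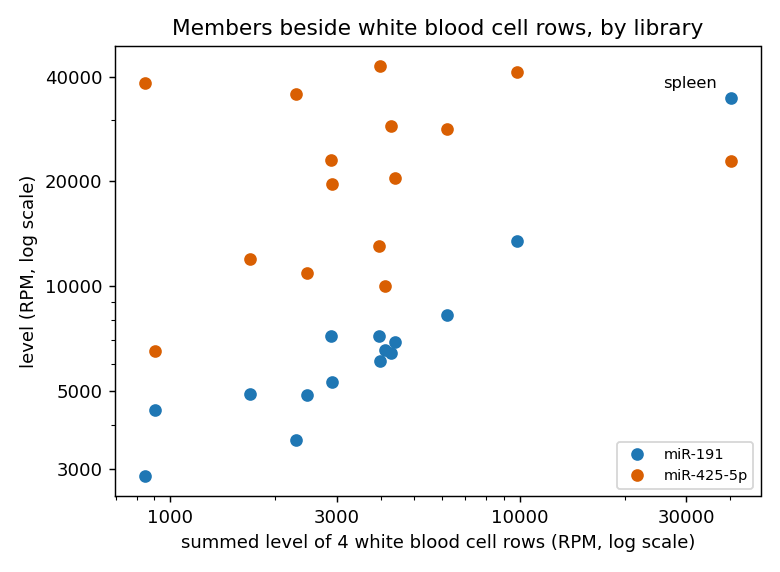
Level of each member in each of 15 libraries against the summed level of 4 white blood cell rows (miR-146a-5p, miR-150, miR-155-5p and miR-223), both in RPM on log axes. The sum is mostly miR-150. The miR-191 points climb from the brain libraries at the left to spleen at the right (40374 and 34608 RPM), and the miR-425-5p points show no such order.

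The rows most like miR-425-5p over tissues were mainly rare unnamed ones. They were miR-N73 (r = 0.93, mean level 10.3 RPM), miR-N340 (0.80), miR-N315 (0.79), miR-92-1-5p of the miR-17-92 group (0.70, mean level 19151 RPM) and miR-93-5p of a related cluster (0.69). miR-N73 was highest in tongue, and the others in cloaca. None was highest in spleen, though miR-93-5p was nearly equal there (759 RPM) and in cloaca (764 RPM). Without spleen r stayed between 0.70 and 0.96. miR-93-5p (0.79) and miR-92-1-5p (0.70) were then also among the 5 rows most like miR-191, with r = 0.82 for each.

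How evenly the pair was spread over tissues bears on their use as reference miRNAs. The SD of log2 tissue means was 0.54 for miR-425-5p, the 7th smallest of 319 tested rows, against a median of 1.35 over all of them. Its highest tissue mean was 3.58 times its lowest, or 2.24 times after trimmed mean scaling and 4.56 times with miR-N444 left out of the total. For miR-191 the SD was 0.93, the 80th smallest, and the fold between spleen and brain was 9.49. Among the 61 rows with a mean of at least 1000 RPM, where the median SD was 1.24, miR-425-5p was 4th and miR-191 20th. Without spleen the SDs were 0.57 and 0.54, the 19th and 14th smallest of 319 rows, so that the SD of miR-191 turned on that 1 library. Spleen was the highest tissue of miR-191, and rows that peak elsewhere kept their peak, so the ranks without spleen are not like for like.

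Of 20 names listed as reference miRNAs, 11 had a tested row, with a median SD of 0.85. Of these, miR-93-5p (0.51) was more even than miR-425-5p, and 8 rows were more even than miR-191, among them let-7a (0.61, listed in 2 rows of like level), miR-26a-5p (0.67) and miR-30c-5p (0.75). The evenness of the tissue means of miR-425-5p hides the spread inside heart and brain, where 1 library was high and the other low. On scaled values the SD of libraries within a tissue was 0.79 for miR-425-5p and 0.70 for miR-191, near the median of 0.81 over the abundant rows.

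**Figure D3:**
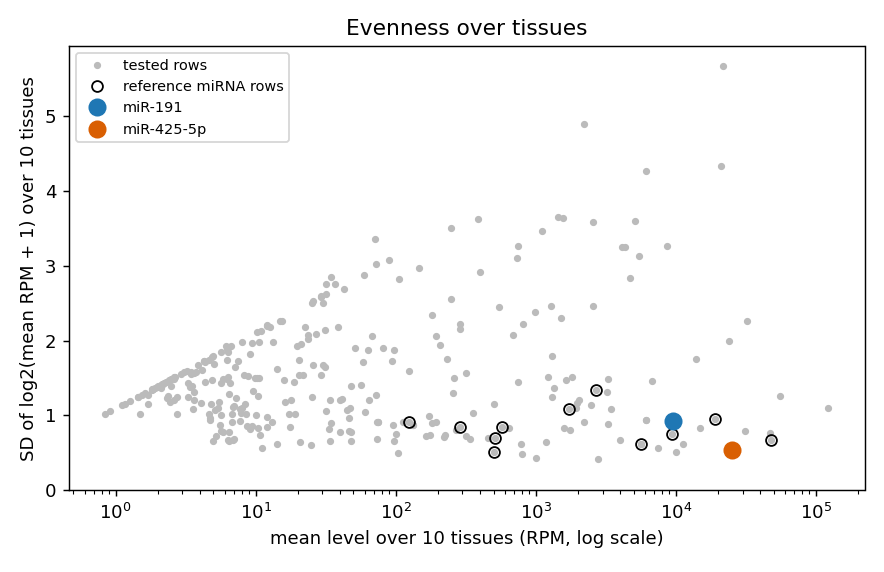
SD of log2 tissue means over 10 tissues against the mean level in RPM on a log axis, for 319 tested rows (grey), 11 reference miRNA rows (open circles) and the 2 members. miR-425-5p (SD 0.54) lies at the lower edge of the abundant rows, and miR-191 (SD 0.93) higher.

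Testis, heart and brain were compared with limma on log2(scaled RPM + 1), with p-values adjusted by Benjamini-Hochberg over 319 rows. Neither miRNA passed the threshold of 0.05 in any of the 3 comparisons, and with these settings neither had an unadjusted p under 0.05. In testis against heart, where 34.5% of all rows passed, the log2 fold of miR-191 was 0.43 (95% interval -0.92 to 1.78, adjusted p = 0.688). That of miR-425-5p was -0.085 (-1.45 to 1.28, adjusted p = 0.935). In testis against brain, where 45.5% of rows passed, miR-191 had a log2 fold of 1.00 (-0.36 to 2.35, adjusted p = 0.229) and miR-425-5p 0.28 (-1.09 to 1.65, adjusted p = 0.767). The value of miR-191 against brain turned on 1 library, at 0.17 without the runt brain (adjusted p = 0.862) and 1.83 without the normal brain (unadjusted p = 0.0189, adjusted p = 0.0504). With miR-N444 left out of the total, in place of trimmed mean scaling, it was 1.31 (0.18 to 2.45, unadjusted p = 0.0275, adjusted p = 0.0596). In heart against brain, where 22.3% passed, they had 0.57 (-0.99 to 2.13, adjusted p = 0.746) and 0.37 (-1.21 to 1.95, adjusted p = 0.877). The intervals leave room for differences of 2-fold and more, so these tests do not show that the levels are alike.

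The ratio of the 2 miRNAs within a library does not depend on any scaling. The log2 ratio of miR-191 to miR-425-5p was 0.60 in spleen and below 0 in the other 14 libraries, so spleen was the one library with more reads of miR-191. It was -1.28 in stomach, -1.61 in cloaca, -1.67 in jaw skin, -1.78 in liver, -1.89 in small intestine and -2.81 in tongue. In testis it was -1.57 and -1.16 in the normal hatchlings and -0.87 and -2.16 in the runts. In heart it was -3.30 in the normal hatchling and -0.60 in the runt, and in brain -0.56 and -3.75. The brain libraries therefore held both ends of the range outside spleen, from 1.48 to 13.4 reads of miR-425-5p for each read of miR-191. The heart libraries had 1.52 in the runt and 9.86 in the normal hatchling.

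Over testis, heart and brain the ratio did not differ past the threshold (exact permutation test of the F statistic over 420 assignments, F = 0.207, p = 0.852). The smallest p that this design allows is 0.00476. The mean log2 ratios were -1.44 ± 0.56 in testis (SD, n = 4), -1.95 ± 1.91 in heart and -2.15 ± 2.25 in brain (n = 2 each).

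**Figure D4:**
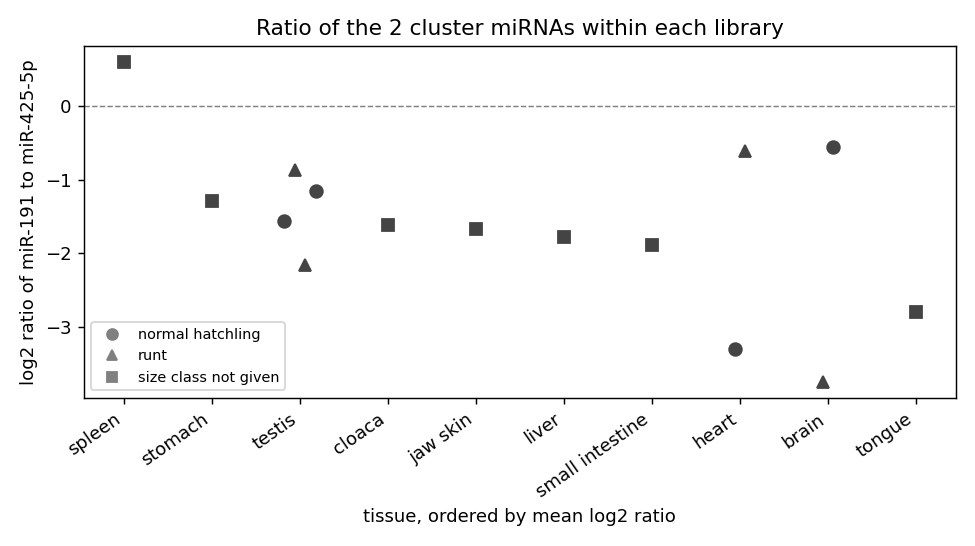
Log2 ratio of miR-191 to miR-425-5p in each of 15 libraries, by tissue and size class, with a dashed line at equal reads. Spleen (0.60) is the one library above the line, and the normal and runt libraries lie in opposite order in heart and brain.

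Since the pair comes from 1 transcript in mammals, its ratio was set beside those of other miRNAs that share a cluster in other vertebrates. Whether these lie together in the crocodile was not checked. Of 39 other listed pairs, 23 had both rows at 10 RPM or more in some tissue. The SD of the log2 ratio over 10 tissue means was 0.93 for miR-191 and miR-425-5p, the 8th widest of the 24 pairs, where the median of the other 23 was 0.78. The correlation of their log2 tissue means was 0.28 (0.58 without spleen), the 7th lowest of the 24, where the median of the others was 0.77. With the rows of a name summed, the pair was the 7th widest and the 5th lowest. The epithelial pair miR-200a and miR-429 kept a steadier ratio (SD 0.40, r = 0.99), as did miR-17 and miR-20 (0.24 and 0.97) and miR-221 and miR-222 (0.56 and 0.94). Low correlations were also found for let-7a and let-7f (SD 0.90, r = 0.016) and miR-100 and miR-125b (0.78 and 0.37). Cluster names can stand for several copies in a genome, and r is higher for rows that vary more between tissues, so these values describe the pairs without ranking their linkage.

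Runts and normal hatchlings were compared because the labels name the difference between them as the purpose of the work. Over the 8 libraries of testis, heart and brain, in a model with tissue as a term, no common change of either miRNA passed. The log2 fold in runts was -0.44 for miR-191 (95% interval -1.61 to 0.73, adjusted p = 0.880 by limma) and -0.25 for miR-425-5p (-1.41 to 0.92, adjusted p = 0.925). Of 293 rows, 0% passed and 20 had an unadjusted p under 0.05. Within testis the log2 folds were -0.59 (-1.48 to 0.30, adjusted p = 0.273) and -0.44 (-1.27 to 0.39, adjusted p = 0.359), where 1.28% of 234 rows passed. On deposited RPM without scaling these turned to 0.23 and 0.38 within testis, where the median of all tested rows moved from -0.19 to 0.59, so both miRNAs lay below that median either way. The log2 ratio of miR-191 to miR-425-5p differed by -0.21 between runts and normal hatchlings (exact permutation test within tissue, two-sided, p = 0.75, where the smallest p allowed is 0.0833).

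In the 2 tissues with 1 library per size class, the differences had opposite signs. In brain the runt had 5.87 times the miR-425-5p of the normal hatchling, and in heart the normal hatchling had 3.58 times that of the runt. miR-191 went the other way in each tissue, at 1.55 times more in the normal brain and 1.81 times more in the runt heart. The log2 ratio of miR-191 to miR-425-5p in the runt minus that in the normal hatchling was accordingly -3.18 in brain and 2.70 in heart. The size of these differences in brain depended on the scaling. After trimmed mean scaling the runt and normal brain had 25235 and 8750 scaled RPM of miR-425-5p and 1880 and 5926 of miR-191. In testis the runt and normal libraries overlapped for both miRNAs on deposited RPM. After trimmed mean scaling they did not. miR-191 had 6533 and 4537 in runts against 6888 and 9671 in normal hatchlings, and miR-425-5p 11899 and 20299 against 20418 and 21602. For miR-425-5p the higher runt library and the lower normal one were nearly equal. Overlap was not checked with miR-N444 left out of the total or with median of ratios scaling.

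The difference between the runt effects in brain and in heart was tested with limma after it had been seen, with the spread taken from the 4 testis libraries. Each of the 4 arms is 1 library, so its p assumes that heart and brain libraries vary as testis libraries do, and it does not establish a difference. It was 3.20 on the log2 scale for miR-425-5p (95% interval 1.36 to 5.04, adjusted p = 0.0633) and -2.68 for miR-191 (-4.64 to -0.72, adjusted p = 0.0994). Neither passed, while 13.7% of 293 rows did. That background is not firm, since 40 rows passed with all 4 testis libraries and 0 with any 1 of them left out, without scaling or without the intensity trend. The runt effect in testis less the average effect of the other two tissues was -0.29 for miR-191 and -0.39 for miR-425-5p (adjusted p = 0.756 and 0.662), where 1.02% of rows passed. Over all alternatives of the brain and heart difference, the adjusted p ran from 0.0269 to 0.239 for miR-425-5p and from 0.0465 to 0.347 for miR-191.

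Many rows shared this crossing of brain and heart. On deposited RPM, 59 of 319 rows differed at least 2-fold one way in brain and at least 2-fold the other way in heart. Of the 56 rows with a mean of at least 1000 RPM, 14 did so. The 14 include miR-9-5p and miR-199-5p, each with a second row of like values, so they are fewer than 14 separate miRNAs. By the brain minus heart difference, miR-425-5p was 2nd of those 56 rows. miR-191 was 24th from the other end and was not among the 14. These counts and ranks depend on scaling, since the trimmed mean factor that divides RPM was 1.52 for the runt brain and 0.75 for the normal one. A row of equal scaled level in both thus lay higher in the runt brain on deposited RPM. On scaled levels miR-191 had 1880 and 5926 in the runt and normal brain, and 6924 and 3538 in the runt and normal heart. No count of crossing rows was made on scaled levels. miR-181a-5p (1.60 in brain, -1.58 in heart, log2 of runt over normal) and miR-30a-5p (1.79 and -1.58) lay on the side of miR-425-5p. On the other side lay let-7f-5p (-1.70 and 2.32) and miR-21-5p (-1.08 and 2.09). These rows were picked after their values were seen.

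Depth moved with the same libraries. The libraries low in miR-425-5p were the deeper of each pair, at 4760000 reads for the normal brain against 2110000 for the runt, and 3140000 reads for the runt heart against 870000 for the normal one. In testis the 2 libraries with most miR-425-5p on deposited RPM had 1140000 and 1660000 reads, and the others 1120000 and 1960000. Over the 8 libraries, deviations from the tissue mean of log2 miR-425-5p and of log2 depth had r = -0.84, and those of miR-191 and log2 depth r = 0.64. In heart and in brain the 2 deviations mirror each other, so the 8 points are not independent and each r is a description. Over all 15 libraries r was -0.63 for miR-425-5p and 0.012 for miR-191. miR-N444 was higher in the normal library of both heart and brain. It took 23.0% and 5.35% of RPM in the normal and runt brain, and 12.7% and 4.55% in the normal and runt heart. In testis, on deposited RPM, it was highest (60.0%) in the library with least miR-425-5p and lowest (26.5%) in the one with most. The first normal and first runt testis libraries had 34.4% and 29.0%, with 20471 and 13081 RPM of miR-425-5p. Any link between miR-N444 and miR-425-5p was not tested. In heart and brain, the endothelial row and the sum of the smooth muscle and mesenchyme rows were lower where miR-425-5p was higher. miR-126-5p, an endothelial miRNA and the one row of its list, had 11283 RPM in the runt heart and 3049 RPM in the normal one, and 759 RPM in the runt brain and 1892 RPM in the normal one. The 4 smooth muscle and mesenchyme rows, none at 0, summed to 26713 and 7047 RPM in the runt and normal heart. In the runt and normal brain they summed to 2975 and 3990 RPM. In testis, on deposited RPM, their sum went the other way. It was 23728 and 26621 RPM in the libraries with most miR-425-5p, and 20273 and 11957 RPM in the others. After trimmed mean scaling the second normal testis library had most miR-425-5p (21602), so this grouping of testis libraries holds for deposited RPM only. Striated muscle rows were slightly higher in the normal heart (64459 RPM) than in the runt heart (62073 RPM). Brain and neuron rows were lower in the runt brain (48588 RPM) than in the normal one (70006 RPM). Rows of skin and stratified epithelium were higher in the runt brain (103 RPM) than in the normal one (68.8 RPM). The part of depth and of cell content in these differences was not tested.

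**Figure D5:**
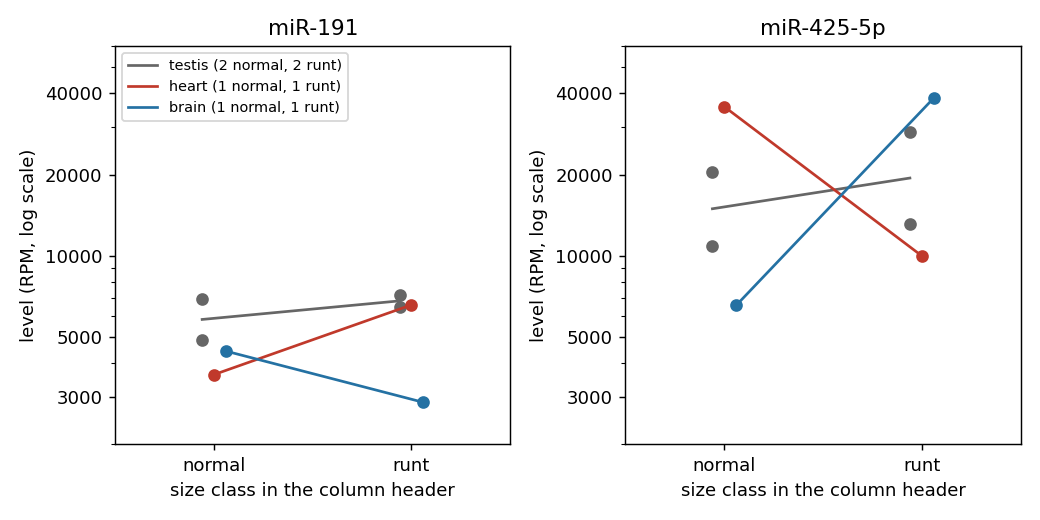
Level of miR-191 (left) and miR-425-5p (right) in normal and runt libraries of testis, heart and brain, in RPM on a log axis, with lines between the geometric means of each tissue. The heart and brain lines cross in both panels, each resting on 1 library per size class. The testis libraries of the size classes overlap on deposited RPM. After trimmed mean scaling they do not, though for miR-425-5p they nearly meet.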

How the data were processed

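The 60 samples carry 15 library names with 4 samples each, and the deposited table holds 1 value column per library, so the 4 samples of a name could not be compared. Of the value columns, 1 has a name found among no sample's labels and was set aside. The values are RPM made by the authors; per the file headers they were written by miRDeep2, version 2_0_0_8. That they are RPM, and not the counts the first line names, was read from the values. The submitters' processing notes list bcl2fastq 2, Bowtie 1.2.0 and bedtools 2.26.0, and no build of the genome is named there. The worth of 1 read was estimated from the steps between low values, of which 88.4% to 95.3% were whole multiples within 0.1 reads. The rest were fractions, so the tests did not treat the values as counts. The Poisson intervals alone rest on estimated reads.

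Tests used limma 3.58.1 in R 4.3.3 on log2(RPM + 1), with an intensity trend, after scaling by an unweighted trimmed mean of log ratios (30% and 5% trimmed), over rows reaching 10 RPM in 2 or more libraries. Tissues were compared in 1 fit of all 15 libraries without covariates. P-values are two-sided. The steps were tested on simulated data. Single values had exact permutation tests. Poisson intervals are at 95%, were computed on estimated reads and cover counting error only.

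The members, lists and tests were chosen with earlier results of these data known. The rows named as most alike are the 5 with the highest Pearson r of log2(mean RPM + 1) over 10 tissues for each member. In the reference list and the main cluster pairs, the most abundant row stood for a name with several rows. Marker totals instead summed all rows of the listed names, 7 rows for 4 names in brain and neuron and in striated muscle. A miRNA with several rows, such as miR-9-5p, thus entered more than once. Alternatives changed the pseudocount, filter, scaling, variance trend, model and libraries.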

Additional observations from a re-analysis of the deposited data

Results flagged for a closer look

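The runt effects on both miRNAs had opposite signs in brain and heart, which is why they are listed here. For miR-425-5p the log2 difference of runt minus normal was 2.55 in brain and -1.84 in heart. For miR-191 it was -0.63 in brain and 0.86 in heart. Each value rests on 1 library per size class, and the test of the difference between the tissues by limma missed the threshold for both (adjusted p = 0.0633 and 0.0994), with a spread borrowed from testis. On deposited RPM, no testis library stood apart from the other 3 by Dixon's gap test, for either miRNA or for their ratio. With 4 libraries that test can detect little, and it was not run on scaled levels. There the first testis library of a runt had 11899 scaled RPM of miR-425-5p, against 20299, 20418 and 21602 in the others. Without that library the log2 fold of miR-425-5p in runts within testis moved from -0.44 to -0.078.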

How the results depend on the processing

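No tissue or size class comparison of the 2 miRNAs passed the threshold under the main settings, and the 3 calls gained under alternatives were those of the brain and heart difference in runt effects: 3.20 (miR-425-5p) and -2.68 (miR-191) with a filter of 100 RPM, and 3.56 (miR-425-5p) with median of ratios scaling. Of all rows, 51 of 137 (37.2%) were called in the first of these fits and 38 of 293 in the second, and every arm of the contrast is 1 library, so these calls do not establish a difference. Values that did not pass changed sign 14 times with a library left out and 8 times under other settings. Without scaling, runt against normal turned to 0.17 (miR-191) and 0.37 (miR-425-5p) with tissue in the model and to 0.23 and 0.38 within testis, and testis minus the mean of heart and brain to 0.12 and 0.021. Testis against brain turned to -0.049 for miR-425-5p with median of ratios scaling, and testis against heart to 0.47 with miR-N444 left out of the total. Leaving out 1 library at a time (a lone heart or brain library is then assumed to vary like the other groups) gave, for miR-191, -0.26 to 1.40 in heart against brain (negative without the runt brain), -0.055 to 0.91 in testis against heart (negative without the normal heart) and -0.76 to 0.023 in testis minus the mean of heart and brain (positive without the second testis library of a runt). For miR-425-5p it gave -0.50 to 1.23 in heart against brain (negative without the normal heart or the normal brain), -0.48 to 1.05 in testis against brain (negative without the normal brain), -0.95 to 0.78 in testis against heart (positive without the first testis library of a runt or the normal heart) and -0.84 to 0.22 in runts (positive without the first testis library of a runt or either heart library). The log2 ratio in runts ran from -1.67 to 1.27 (positive without either brain library or the second testis library of a runt). The cause was not tested. Counts of all rows called moved by more than 1.5 times in several fits. In testis against heart, testis against brain and heart against brain, the main fits called 110, 145 and 71 of 319 rows (34.5%, 45.5% and 22.3%). With a filter of 100 RPM they called 38, 53 and 41 of 149 rows (25.5%, 35.6% and 27.5%), so the share in heart against brain rose. With no filter testis against brain had 221 of 654 rows, where the count rose and the share fell to 33.8%. Without the runt brain testis against brain had 88 and heart against brain 19, and the latter had 44 without the normal heart or the normal brain. Runt against normal had 1 without scaling and 7 without either heart library (main 0). Within testis, the main 3 became 24 without scaling, 7 without miR-N444, 1 without the intensity trend, and 1, 68 and 0 without the first normal, first runt and second normal library. For testis minus the mean of heart and brain, the main 3 became 14 with no filter, 6 without miR-N444 and 0 without scaling, the trend or any 1 testis library. No paired analysis was possible because the columns carry no replicate numbers.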
